A study of Homo sapiens with 2 samples.

Results

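The AlkB family consists of ALKBH1 to ALKBH8 and FTO, 9 genes of the 59026 that could be summed in transcript tables of HEK293 cells. The genes were chosen by family membership and not by their values, and all of their listed transcripts were taken, 81 of 206696. HEK293 is an established human embryonic kidney line, here as the Flp-In T-Rex derivative grown in high glucose DMEM with foetal calf serum, with no transgene and no treatment given in the labels. Total RNA depleted of ribosomal RNA was sequenced in 1 group of 2 libraries, replicate 1 and replicate 2, and the labels do not say whether these are separate cultures, so the spread given here may be technical. All values describe these libraries and their spread, as 1 group holds no contrast.

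AlkB enzymes are dioxygenases that hold an iron ion and use oxygen and 2-oxoglutarate to oxidise a methyl group on a base, which then leaves as formaldehyde. The founding bacterial enzyme repairs alkylated DNA, and the human members took on different substrates. FTO and ALKBH5 remove methyl groups from N6-methyladenosine (m6A) in RNA, ALKBH2 and ALKBH3 repair N1-methyladenine and 3-methylcytosine (m3C) in nucleic acids, ALKBH1 and ALKBH8 act on tRNA, and ALKBH4 and ALKBH7 are linked to protein and mitochondrial functions. ALKBH6 is the member about which least is known.

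The iron ion is held by a histidine, any residue and an aspartate, the H-x-D motif, followed by a second histidine and by the pair of arginines that contacts 2-oxoglutarate. The codons of this motif are shown for every member because the results below turn on which transcripts still code for it. They were read 5′ to 3′ from the coding sequence of the MANE Select transcript of each gene, the 1 transcript per gene chosen jointly as reference by RefSeq and Ensembl/GENCODE (GRCh38, GENCODE v44), with the 3 codons of the motif in capitals and 3 codons on either side.
FTO: gtgagctggCATCATGATgaaaatctg
ALKBH5: atcgtgtctCACGTGGACcccatccac
ALKBH2: atcggggagCACCGAGATgatgaaaga
ALKBH3: gtggactggCACAGTGATgatgaaccc
ALKBH1: ctgggaatcCACGTAGACagatctgag
ALKBH8: attcccgctCATATTGATacacattcc
ALKBH6: atcatgcccCACGAGGACggaccactg
ALKBH4: attgaccccCACCTGGACgacgcctgg
ALKBH7: atcaagcccCACGTGGACagcatcaag
These codons lie at chr16:53826422-53826448 in exon 3 of 9 for FTO, chr17:18184844-18184870 in exon 1 of 4 for ALKBH5, and chr11:43901618-43901644 in exon 8 of 10 for ALKBH3, all on the plus strand, as is ALKBH7 with chr19:6374350-6374376 in exon 2 of 4. On the minus strand they lie at chr12:109088464-109088490 in exon 4 of 4 for ALKBH2, chr14:77675688-77675714 in exon 5 of 6 for ALKBH1, chr11:107549795-107549821 in exon 7 of 12 for ALKBH8 and chr7:102457781-102457807 in exon 3 of 3 for ALKBH4. The window of ALKBH6 crosses a splice junction, with 6 bases at chr19:36010894-36010899 in exon 5 and 21 bases at chr19:36010663-36010683 in exon 6 of 7.

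A transcript was counted as holding the whole core when its translated coding sequence contained, unbroken, the stretch from the H-x-D motif to the end of the next R-x5-R pattern after a histidine. This stretch was 76 to 114 residues long in the members, at residues 231 to 322 of 505 in FTO and 204 to 283 of 394 in ALKBH5. The pattern is a description of the sequence, and its arginines were not checked against a structure.

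All 9 genes were expressed. The libraries totalled 25158962 and 27143860 estimated counts, of which the members took 8910 and 10524. Levels of different genes were compared only per length: each estimated count was divided by the length of its transcript in GENCODE v44, summed per gene and scaled so that a library totals 1000000. On this scale the levels of the members summed to 195 and 207 in replicates 1 and 2 (mean 201 ± 8.05, SD, n = 2). FTO and ALKBH5, the pair that acts on m6A, made up 48.7% ± 1.23 of this sum (SD, n = 2).

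**Figure D1:**
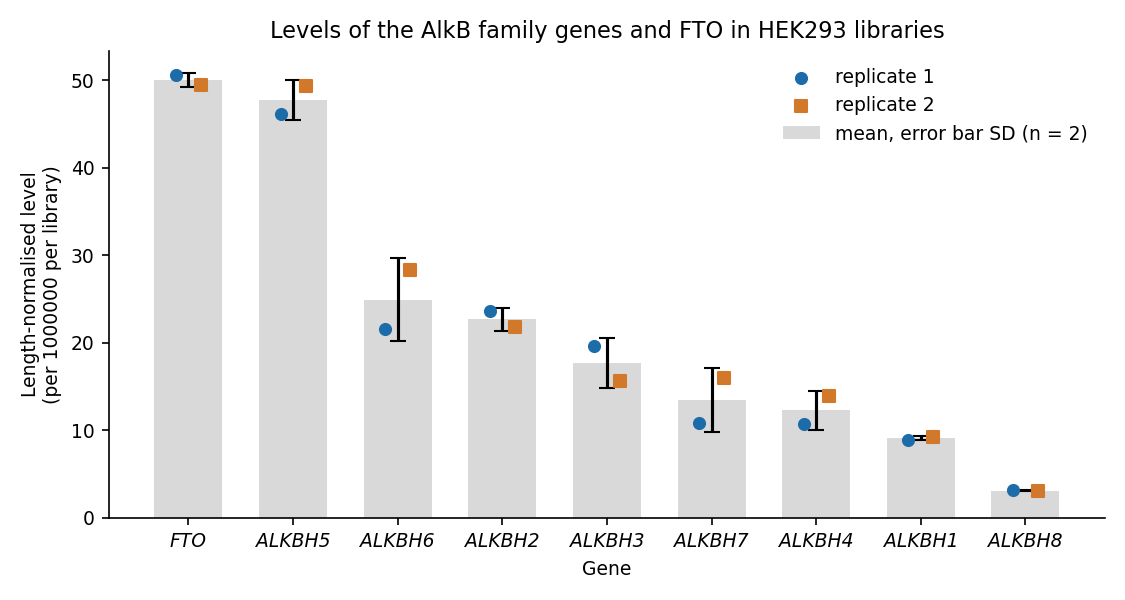
Length-normalised level (per 1000000 per library, y axis) of each of the 9 genes (x axis), with points for replicate 1 and replicate 2, grey bars for the mean and error bars for the SD (n = 2). FTO and ALKBH5 stand at 50.04 and 47.7, the next gene, ALKBH6, at 24.9, and ALKBH8 at 3.08.

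FTO (chr16:53701692-54158512, plus strand), which removes methyl groups from m6A and from the methylated adenosine next to the mRNA cap, had levels of 50.6 and 49.5 in replicates 1 and 2 (mean 50.04 ± 0.811, SD, n = 2). ALKBH5 (chr17:18183078-18209954, plus strand), the other m6A demethylase, had levels of 46.2 and 49.3, a mean of 47.7 ± 2.26 (SD, n = 2). The difference between these genes was within the sum of their SDs, although FTO was the higher in both libraries. In normalised counts, which favour long transcripts, ALKBH5 held 3777 and 4159 and FTO 2524 and 2387. Expressed genes, those reaching 1 normalised count in each library, numbered 26370, and 94.4% of them had a lower mean level than FTO and 94.1% a lower one than ALKBH5.

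The ALKBH5 counts stood mostly on 1 transcript. Its MANE Select transcript ALKBH5-201 held 87.6% of them in replicate 1 and 97.2% in replicate 2 (mean 92.4% ± 6.77, SD, n = 2), the highest such share of any member. The retained-intron transcript ALKBH5-202, which begins within the intron before exon 3, had estimated counts of 359 and 66.1. This made 10.1% (95% exact interval 9.09 to 11.1%) and 1.47% (1.14 to 1.87%) of the gene. The libraries therefore differed in this intron-containing form by more than counting error. ALKBH5-203, whose annotated protein of 53 residues lacks the core, held 2.34% and 1.37%.

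FTO was at the other end. Its MANE Select transcript FTO-206, which encodes the full protein, had estimated counts of 18.9 and 37.2, a share of 0.791% and 1.44%. The FTO counts went instead to FTO-220, FTO-201 and FTO-203. FTO-220 had estimated counts of 892 and 968, or 37.4% and 37.6% of the gene, and led in both libraries. FTO-201 held 31.7% and 33.1%, and FTO-203 held 17.5% and 14.0%.

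These 3 transcripts cover different parts of the FTO gene. FTO-220 has exons 1 to 8 of FTO-206, lacking only 2 bases of exon 1, then an exon of its own of 59 bases at chr16:54061662-54061720 and the first 74 bases of exon 9. It codes for the same first 454 residues as FTO-206 and for 1 residue of its own, so it holds the whole core, and it is annotated for nonsense-mediated decay (NMD), the pathway that degrades mRNAs with a stop codon upstream of a splice junction. FTO-201 starts within exon 8, with 80 of its 125 bases, and continues into 2702 bases of exon 9, and FTO-203 holds exons 7 and 8 and 1226 bases of exon 9. Both lack the exons for the core. Of the FTO counts, 47.2% ± 1.35 stood on transcripts with exon 1, 41.9% ± 0.643 on those with exon 3, where the H-x-D codons lie, and 98.5% ± 1.07 on those with exon 8 (SD, n = 2 each), where a transcript had to hold at least 50% of the coding bases of the exon. For exon 9 the share was 58.9% ± 0.271 by this rule, which leaves out FTO-220 with its 74 of 151 coding bases, and 96.4% ± 0.435 when any coding base sufficed (SD, n = 2 each). In GENCODE v44 the last exon of FTO-206 is 10180 bases long. FTO-206 is also the only FTO transcript of 22 whose version differs between the tables and GENCODE v44, so the model counted may have had other ends. RPGRIP1L, a cilium gene on the opposite strand with 782 and 618 normalised counts, overlaps 2247 bases of the span of FTO but none of its exons. ENSG00000280392, on the same strand and also sharing no exonic base, held 21.2 and 29.7.

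**Figure D2:**
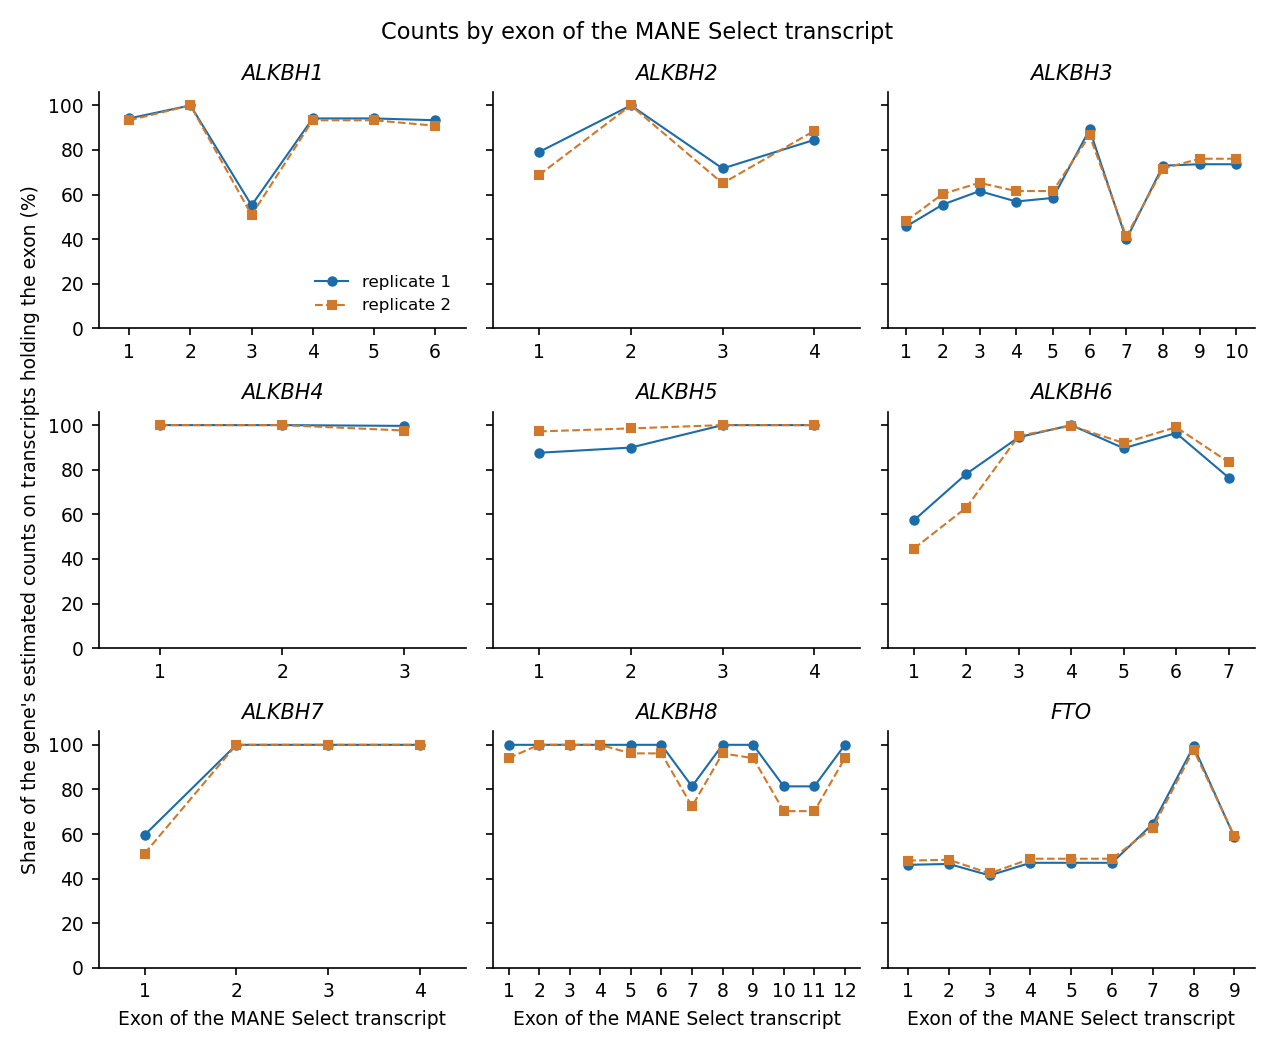
Share of a gene's estimated counts (y axis, %) on transcripts that hold at least 50% of the coding bases of each exon of its MANE Select transcript (x axis, exon number, exons without coding bases judged by all bases), with circles for replicate 1 and squares for replicate 2. In FTO the mean share is 47.2% at exon 1, 41.9% at exon 3, 98.5% at exon 8 and 58.9% at exon 9. ALKBH1 has its lowest mean share, 53.0%, at exon 3.

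In 5 members 1 transcript annotated for NMD reached a mean share of at least 10%. The share of all genes with such a transcript was not computed. Across 5539 genes with an NMD transcript, the upper quartile of the whole NMD share was 17.6%. The last 27 coding bases of each are shown with the stop codon in capitals, because this is the point at which the reading frame of the transcript ends.
FTO-220: aacctgaggagagaatggcatgccagtTGA
ALKBH1-204: gaagtttactggagaaactgcgttgggTGA
ALKBH4-202: ccgccctgggagctgcccccagcggagTGA
ALKBH6-214: gaggcctcccagctaaccatgtcctcgTGA
ALKBH8-201: gaacctgggcaagattgtcatggatttTAA
The window of FTO-220 joins 26 bases at chr16:53934084-53934109 to 4 bases at chr16:54061662-54061665, that of ALKBH4-202 joins 24 bases at chr7:102464714-102464737 to 6 at chr7:102459705-102459710, and that of ALKBH8-201 joins 13 bases at chr11:107551808-107551820 to 17 at chr11:107532390-107532406. In these 3 the stop codon lies within a few codons after a splice junction that the MANE Select transcript does not have. The windows of ALKBH1-204 (chr14:77679912-77679941) and ALKBH6-214 (chr19:36010923-36010952) lie within 1 exon. Each stop codon ends before the last splice junction of its transcript, by 55 bases in FTO-220, 101 in ALKBH4-202, 146 in ALKBH6-214, 226 in ALKBH1-204 and 242 in ALKBH8-201.

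ALKBH2 and ALKBH3 are the members with DNA repair activity, ALKBH2 on double-stranded DNA and ALKBH3 on single strands and on RNA. ALKBH2 (chr12:109088188-109093631, minus strand) had levels of 23.6 and 21.8, a mean of 22.7 ± 1.29, and ALKBH3 (chr11:43880811-43920274, plus strand) had levels of 19.7 and 15.7, a mean of 17.7 ± 2.85 (SD, n = 2 each). ALKBH2 was higher than ALKBH3 in both libraries, by more than the sum of the SDs.

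The ALKBH2 counts were divided between 3 transcripts. ALKBH2-202, the MANE Select transcript, held 39.9% and 33.2%, and ALKBH2-201 held 25.6% and 28.1%. Both encode the same 261 residues and differ by 150 bases of the untranslated part of exon 2. ALKBH2-203 held 18.9% in replicate 1 (95% exact interval 15.7 to 22.4%) and 27.4% in replicate 2 (23.6 to 31.2%). It lacks exons 1 and 3, the latter 199 bases long and so not a multiple of 3, and its protein of 157 residues does not contain the core. No ALKBH2 transcript in the tables is annotated for NMD.

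ALKBH3 was spread over many transcripts, with 10 of 12 above 0 in replicate 1 and 9 in replicate 2. ALKBH3-201, the MANE Select transcript of 286 residues, held 33.3% and 31.0% of the gene, and ALKBH3-208 held 30.7% and 24.9%. ALKBH3-208 begins within exon 6, leaves out the 89 bases of exon 7 and is marked as incomplete at its start, and its reading frame of 155 residues contains the whole core. Exon 7 was held by transcripts with 40.6% ± 0.949 of the counts (SD, n = 2), the lowest share of any ALKBH3 exon. Retained-intron transcripts took 14.3% and 9.79% of ALKBH3, and those with no defined coding sequence 14.6% and 14.9%. SEC14L1P1, a processed pseudogene on the same strand with 75 exonic bases in common, held 11.8 and 27.3 normalised counts, and ALKBH3-AS1 on the opposite strand, with no exonic base in common, 12.7 and 12.98.

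ALKBH1 and ALKBH8 both act on tRNA. ALKBH1 oxidises methylated cytidine at the wobble position of a mitochondrial tRNA and removes N1-methyladenosine from tRNAs, and ALKBH8 carries an RNA-binding and a methyltransferase domain beside its dioxygenase core and completes wobble uridine modifications. They were the 2 lowest members. ALKBH1 (chr14:77672404-77708023, minus strand) had levels of 8.95 and 9.25, a mean of 9.10 ± 0.217, and ALKBH8 (chr11:107502727-107565742, minus strand) had 3.13 and 3.04, a mean of 3.08 ± 0.0646 (SD, n = 2 each). ALKBH8 lay below every other member in both libraries. The closeness of its levels depends on the scale, as in normalised counts ALKBH8 held 279 and 202 in replicates 1 and 2. With only transcripts of 1 or more normalised counts in both libraries, its level was 2.68 ± 0.642 (SD, n = 2). FTO was 16.2 times as high as ALKBH8, and 55.5% of the expressed genes had a lower mean level than ALKBH8.

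The ALKBH1 counts were shared nearly equally by a coding and an NMD transcript. ALKBH1-201, the MANE Select transcript of 389 residues, had estimated counts of 202 and 197, or 49.3% (95% exact interval 44.3 to 54.2%) and 44.2% (39.5 to 48.9%). ALKBH1-204 held 180 and 208, or 44.01% and 46.7%. ALKBH1-201 led in replicate 1 and ALKBH1-204 in replicate 2. ALKBH1-204 lacks the 163 bases of exon 3, at chr14:77694738-77694900, keeps the first 98 residues and ends after 18 others. Every one of its 1701 words of 50 bases also occurs in another ALKBH1 transcript of GENCODE v44, so reads of that length do not tell it apart by themselves. The same held for ALKBH2-202, ALKBH2-203, ALKBH6-202 and ALKBH6-207 among the transcripts of their genes, so their shares and the differences between libraries carry this limit too. Other transcripts had few words of their own, with 0.535% in ALKBH3-201, 2.29% in FTO-201 and 2.96% in ALKBH3-208. In FTO-203 these were 3.07% and in ALKBH4-202 3.54%, so the shares of these transcripts rest on few distinguishing bases.

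In ALKBH8, the MANE Select transcript ALKBH8-205 of 664 residues held 215 and 140 estimated counts, or 81.4% (95% exact interval 76.2 to 85.9%) and 64.3% (57.5 to 70.6%). ALKBH8-201, annotated for NMD, held 49.2 and 51.8, or 18.6% and 23.8%. It lacks exon 7, whose 71 bases carry the H-x-D codons, and also exons 10 and 11, and it keeps the first 233 residues. Exons 10 and 11 stood on transcripts with 75.8% ± 7.86 of the counts (SD, n = 2). In replicate 1 the other 5 transcripts were listed at 0, and 3 counts of the ALKBH8 total would be a share of 1.14%.

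ALKBH6 (chr19:36009120-36014239, minus strand) came after FTO and ALKBH5, with levels of 21.6 and 28.3 in replicates 1 and 2 (mean 24.9 ± 4.71, SD, n = 2). It was above ALKBH2 in replicate 2 and below it in replicate 1. Of its 19 transcripts, 7 were listed at 0 in both libraries and 4 reached a mean share of 10%. ALKBH6-202, the MANE Select transcript of 238 residues, led in replicate 1 with 32.5% (95% exact interval 28.6 to 36.6%) and held 17.9% (15.3 to 20.6%) in replicate 2. ALKBH6-214, annotated for NMD and marked as incomplete at its start, held 17.2% and 33.1% and led in replicate 2. It lacks exon 2 and lengthens exon 5 by 20 bases.

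The retained-intron transcripts ALKBH6-209, with 14.6% and 17.4%, and ALKBH6-207, with 14.0% and 11.3%, were the only transcripts without a coding sequence to reach a mean share of 10% of the estimated counts in any member. This depends on length: divided by length, ALKBH6-209 held 4.77% ± 0.714 and ALKBH6-207 15.2% ± 1.88, while ALKBH1-202 held 21.3% ± 1.002 and ALKBH3-209 11.6% ± 7.85 (SD, n = 2 each). All retained-intron transcripts together took 38.1% and 34.0% of ALKBH6. Only 25.2% ± 10.3 of the ALKBH6 counts stood on protein-coding transcripts with the whole core (SD, n = 2). A lncRNA gene on the same strand (ENSG00000248101), with 1076 exonic bases in common, was listed at 0 in both libraries.

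ALKBH4, known for demethylating a lysine of actin, and ALKBH7, a mitochondrial protein linked to programmed necrosis, had close levels. ALKBH4 (chr7:102456238-102464863, minus strand) had 10.7 and 13.9, a mean of 12.3 ± 2.23, and ALKBH7 (chr19:6372794-6375250, plus strand) had 10.9 and 16.03, a mean of 13.5 ± 3.64 (SD, n = 2 each). ALKBH7 was the higher in both libraries, by less than the sum of the SDs.

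ALKBH4-201, the MANE Select transcript of 302 residues, held 438 and 408 estimated counts, or 81.7% (95% exact interval 78.2 to 84.9%) and 59.9% (56.1 to 63.6%). ALKBH4-202, annotated for NMD, held 96.0 and 257, or 17.9% and 37.7%. In normalised counts ALKBH4-202 was 2.34 times as high in replicate 2, while ALKBH4-201 was 0.815 times as high. The NMD transcript begins exon 2 91 bases later, and its reading frame keeps 41 residues and ends 1 residue further on. The last 588 bases of ALKBH4 overlap ORAI2, a calcium channel gene on the opposite strand with 1166 and 1410 normalised counts. This overlap lies among the 596 bases of exon 3 that ALKBH4-202 lacks. The counting may or may not have used strand, so reads there can belong to either gene.

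ALKBH7 had no NMD or retained-intron transcript, and all of its counts stood on 2 protein-coding transcripts with the whole core. ALKBH7-201, the MANE Select transcript of 221 residues, held 59.5% and 51.2%, and ALKBH7-203 held 40.5% and 48.8%. ALKBH7-203 has a first exon of its own of 36 bases in place of exon 1, whose 204 coding bases it lacks, and encodes 160 residues. ALKBH7 shares 103 exonic bases with PSPN on the opposite strand, which held 115 and 126 normalised counts.

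**Figure D3:**
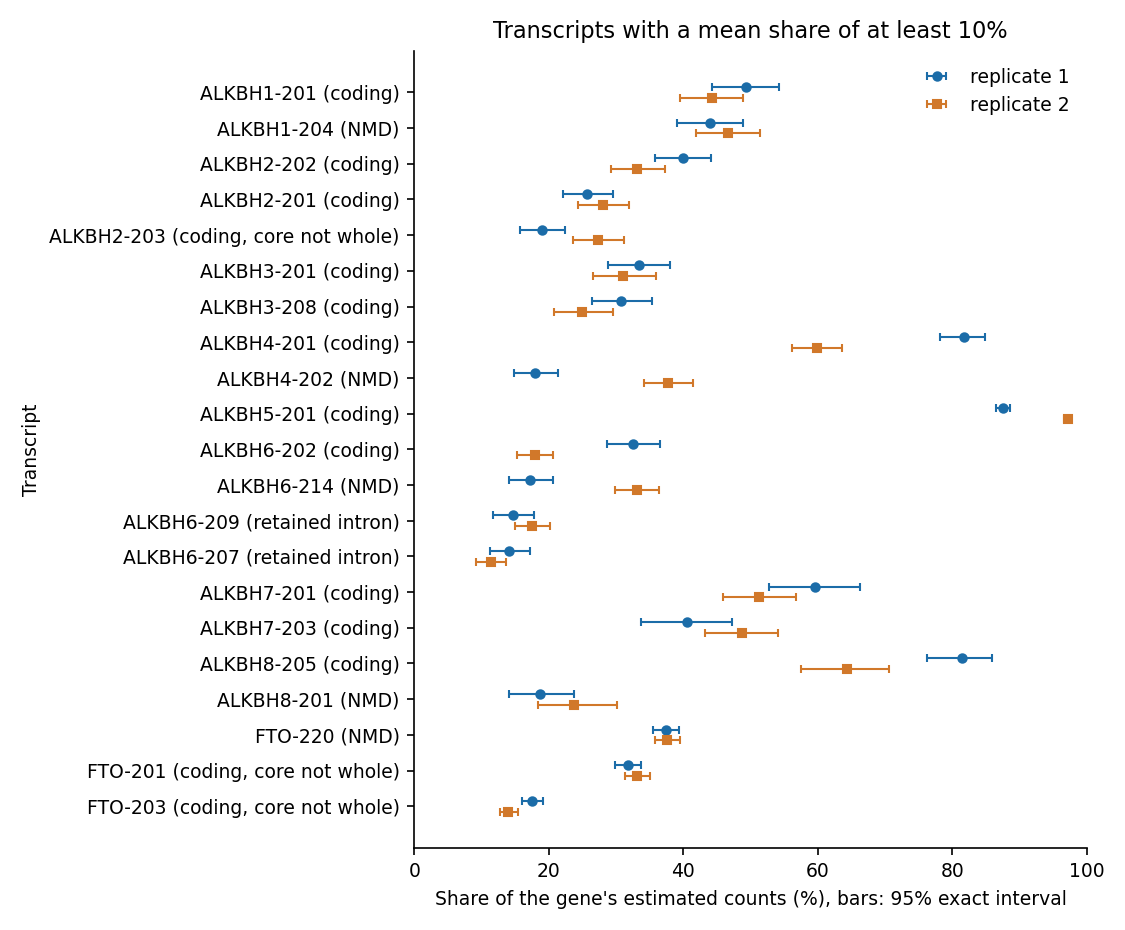
Share of a gene's estimated counts (x axis, %) for the 21 transcripts whose mean share reached 10% (y axis, with their class, NMD standing for nonsense-mediated decay), with circles for replicate 1, squares for replicate 2 and bars for 95% exact intervals, which cover counting error only. The intervals of the 2 libraries lie apart for ALKBH2-203, ALKBH4-201, ALKBH4-202, ALKBH5-201, ALKBH6-202, ALKBH6-214, ALKBH8-205 and FTO-203, and overlap for the others.

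Placed in order of level, the members were FTO, ALKBH5, ALKBH6, ALKBH2, ALKBH3, ALKBH7, ALKBH4, ALKBH1 and ALKBH8. Of the 36 pairs, 31 were ordered alike in replicates 1 and 2 and differed by more than the sum of the SDs. The other 5 pairs were FTO and ALKBH5, ALKBH6 and ALKBH2, ALKBH6 and ALKBH3, ALKBH3 and ALKBH7, and ALKBH7 and ALKBH4. With 2 libraries a sign-flip test cannot give a two-sided p below 0.5, so no p is given. The order rests on the transcripts included: with protein-coding transcripts only, ALKBH5 came first with 44.03, and FTO stood at 21.8, between ALKBH2 and ALKBH7. ALKBH6 then stood at 7.53 in place of 24.9, between ALKBH3 and ALKBH4.

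Between the libraries, 0 of the 9 members differed by more than 2-fold in normalised counts, as against 5.76% of all 19110 genes with a mean of at least 10. The largest differences were those of ALKBH8, at 0.724 times in replicate 2 (95% interval 0.602 to 0.869 from counting error), and ALKBH7, at 1.38 times (1.16 to 1.64). The interval, which treats estimated counts as plain counts, excluded 1 in 6 of the members. The share of all genes for which it does so was not computed, so this is not read as a trait of the members. Of member transcripts that averaged 10 normalised counts or more, 13 of 48 differed by more than 2-fold, 27.1%, near the 30.6% of all such transcripts.

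In 7 of 9 members 1 transcript led in both libraries, near the 81.9% of all genes with several transcripts and at least 10 normalised counts in each library. ALKBH1 and ALKBH6 were the exceptions, both through an NMD transcript that led in replicate 2. By estimated counts the MANE Select transcript led in both libraries in 6 members, as against 53.2% of genes, and FTO alone was led by an NMD transcript in both, which held for 2.93% of genes. Divided by length, the MANE Select transcript led in both libraries in 3 members, ALKBH4, ALKBH5 and ALKBH8, as against 41.8% of genes. ALKBH3-208 and ALKBH7-203 then led their genes in both libraries, ALKBH2-203 led ALKBH2 in replicate 2, and ALKBH1-204 joined FTO-220 as an NMD transcript that led in both, as against 3.6% of genes.

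**Figure D4:**
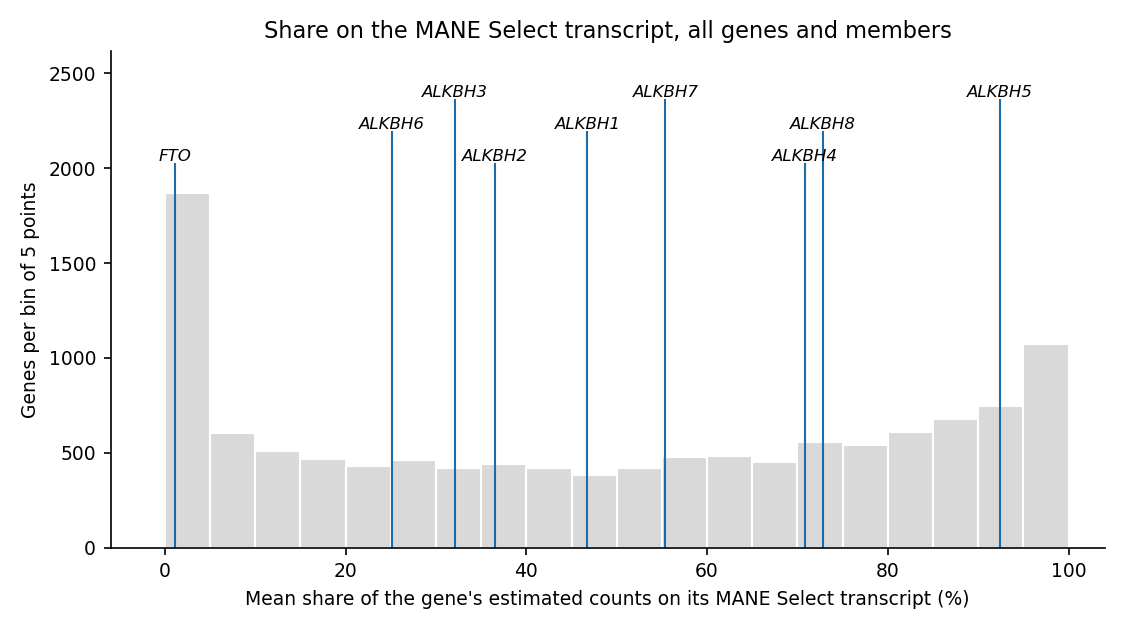
Number of genes (y axis) by the mean share of their estimated counts on the MANE Select transcript (x axis, %, bins of 5 points) for 12064 genes with several transcripts, with a blue line at the share of each member. The members run from 1.12% in FTO to 92.4% in ALKBH5, around the median of all genes at 50%.

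Over all members together, MANE Select transcripts held 53.6% ± 1.69 of the estimated counts, and transcripts annotated as protein-coding held 74.7% ± 0.333 (SD, n = 2 each). Transcripts whose coding sequence holds the whole core, NMD transcripts included, held 68.0% ± 1.26, and protein-coding ones with the core 58.3% ± 1.68. NMD transcripts held 18.05% ± 1.87 and those with retained introns 5.61% ± 2.31. Divided by length, the share with the core was 58.5% and that of NMD transcripts 23.4%. All 9 MANE Select transcripts, and no others of the 81, have another version in GENCODE v44 than in the tables, so lengths used for them may differ from those of the models counted.

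The share of NMD transcripts varied between members. It was 47.0% ± 3.06 in ALKBH1, 43.6% ± 1.54 in FTO, 32.1% ± 11.4 in ALKBH6, 27.8% ± 14.0 in ALKBH4, 22.3% ± 5.15 in ALKBH8 and 4.72% ± 1.04 in ALKBH3 (SD, n = 2 each). ALKBH2, ALKBH5 and ALKBH7 list no such transcript. Across 5539 genes with an NMD transcript the median share was 4.80%, and 93.7% of them had a lower share than ALKBH1 and 92.3% a lower one than FTO. For ALKBH6 this was 86.7%, for ALKBH4 83.8%, for ALKBH8 79.1% and for ALKBH3 49.7%.

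**Figure D5:**
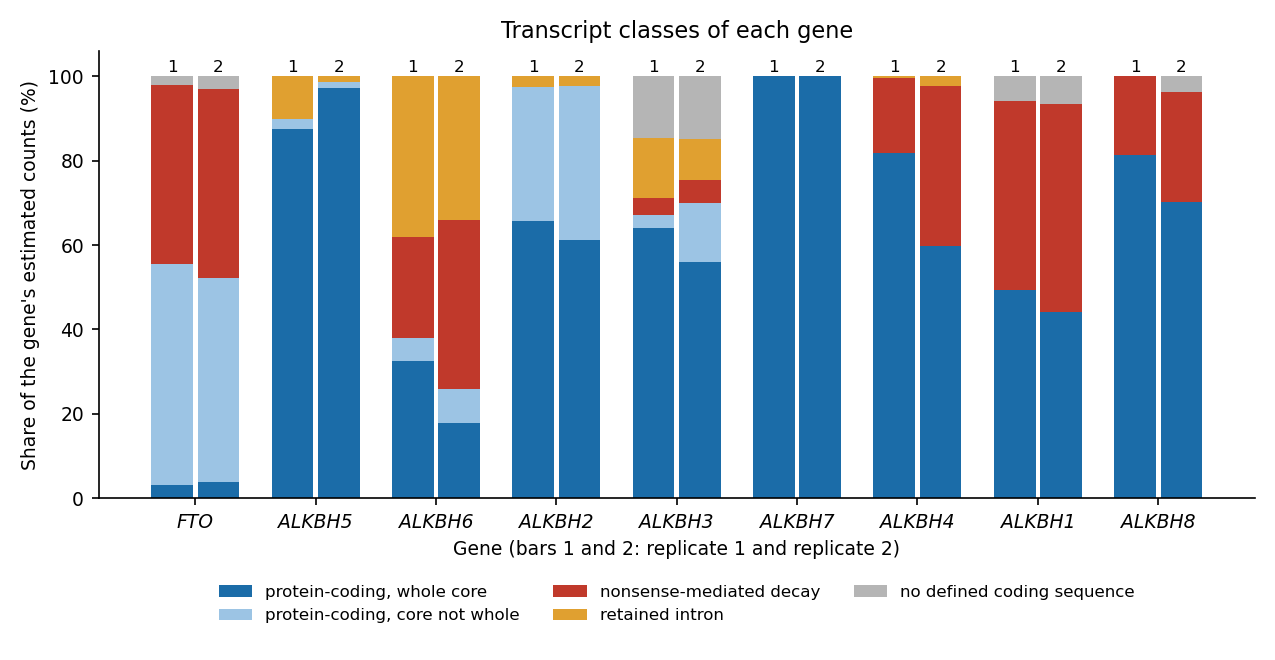
Share of each gene's estimated counts (y axis, %) by transcript class, with a bar for replicate 1 and a bar for replicate 2 per gene (x axis, in order of level). ALKBH7 is all protein-coding with the whole core, and ALKBH5 has 87.6% and 97.2% in that class in replicates 1 and 2. FTO has 3.55% in it on average, and ALKBH6 has its counts in every class but that without a defined coding sequence.

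The levels were set beside those of genes for enzymes that write the marks AlkB enzymes act on. Of 21 genes for writers of m6A, of the cap-adjacent mark, of N1-methyladenosine, m3C and 5-methylcytosine, 20 lay within the range of the members, 0 were above FTO and 1 was below ALKBH8. The range is wide, with 55.5% of expressed genes at a lower mean level than ALKBH8 and 94.4% at a lower one than FTO. Their median level was 13.6, beside 17.7 for the members and 1.87 for all expressed genes. METTL2B, which methylates cytidine to m3C in cytoplasmic tRNAs, was the highest with 39.7 ± 3.84, and NSUN3, which makes the methylated cytidine that ALKBH1 oxidises, was the lowest with 2.92 ± 0.0123 (SD, n = 2 each). Per length and with all transcripts counted, the highest writer was thus below both m6A demethylase genes. In normalised counts METTL2B held 3558 and 2848 in replicates 1 and 2. This was above FTO, with 2524 and 2387, and below ALKBH5, with 3777 and 4159. With protein-coding transcripts only, FTO stood at 21.8 and ALKBH5 at 44.03, and the writers were not computed that way.

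Of 10 genes for wobble uridine modification and ALKBH8 partners, 8 lay within the range of the members and 2 above it. TRMT112, which binds and stabilises ALKBH8 and several other methyltransferases, was the highest with 110 ± 1.11, and CTU1, of the thiolation pathway, the lowest with 4.72 ± 1.35 (SD, n = 2 each). All 10 were above ALKBH8. Of the 4 genes of the ASCC complex, which works with ALKBH3 in the repair of alkylated DNA, ASCC1 was the highest with 21.7 ± 1.73 and TRIP4 the lowest with 5.02 ± 0.591, beside 17.7 for ALKBH3.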

How the data were processed

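Total RNA was extracted with TRI reagent, depleted of rRNA and made into TruSeq libraries. Per the submitters' processing notes FastQC, STAR 2.7.0d, RSEM 1.3.3 and R 3.6.3 were used, and the study names GRCh38 as its genome. Whether the counting used strand is not given in the sources used here. Per transcript, the authors deposited an estimated count made with RSEM, which divides reads between transcripts, and a normalised signal, which is that count divided by 1 size factor per library (0.945 and 1.08). The libraries held 25158962 and 27143860 estimated counts, of which the members took 8910 and 10524. Separate tables of METTL8 transcripts repeat values of the full tables and were not used.

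Transcript identifiers, with versions removed, were looked up in GENCODE v44 (202217 of 206696, all 81 member transcripts among them). Lengths, classes, exons and coding sequences are those of GENCODE v44, with no effective length correction. No RefSeq protein table was at hand, so the core was taken from the translated MANE Select coding sequence in place of the planned RefSeq protein. It ran from the H-x-D motif, with a histidine 40 to 100 residues on and an R-x5-R pattern 7 to 60 residues after that. ALKBH7 had 2 such motifs, of which the last was used.

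With 1 group no test between groups was made. Shares have exact (Clopper-Pearson) 95% intervals of rounded estimated counts, which like the limit from 3 counts cover counting error only. Tested on simulated data, Poisson counts for replicate 2 against replicate 1 over 19157 genes, the 2-fold call found 100% of 200 genes changed 4-fold and called 0.997% of the others. In 12392 genes with several transcripts, 100% of 200 exchanged leading transcripts were found, and 3.79% of the others were called. The simulation held counting error only, and its planted changes were larger than the cut, so it checks that the calls run. It gives no error rate for the real libraries, in which 5.76% of genes were over 2-fold and 81.9% kept their leading transcript. The members, lists and alternatives were chosen with earlier results of these data known. All members are named, with transcripts of at least 10% mean share, the highest and lowest gene of each list, and overlapping genes whose normalised counts averaged 10 or more. Shares on MANE Select and NMD transcripts, the comparisons by exon and transcripts below 10% that are named were added after values were seen. Python 3.11.15, pandas 2.3.3, scipy 1.17.1 and biopython 1.88 were used.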

Additional observations from a re-analysis of the deposited data

How the results depend on the processing

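No paired analysis was possible because the 2 libraries form 1 group. Leaving out either library always moves a mean of 2 by less than 1 SD, so these settings say nothing about stability. The sum of the members was 195 without replicate 2 and 207 without replicate 1. It was 9593 in normalised counts, which is another unit, 112 with 200 bases taken off each length, 131 with protein-coding transcripts only, 614 when scaled to protein-coding transcripts and 126 with transcripts of the same version only. The ratio of the highest to the lowest member, 16.2, became 18.7, 16.6, 27.7 and 35.9 in normalised counts, with shorter lengths, with protein-coding transcripts and with the same version, and 19.2 with transcripts of 1 or more in both libraries. The same-version setting removes every MANE Select transcript, and with it most of ALKBH5. The share of protein-coding transcripts was 65.2% divided by length and 45.5% with the same version, and the share with the whole core 58.5% and 31.0%, or 58.3% without NMD transcripts. Divided by length, MANE Select transcripts held 37.5% and NMD transcripts 23.4%. The last 3 comparisons named, of the core without NMD transcripts and of MANE Select and NMD shares, were added after seeing the data.

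The log2 ratio of FTO to ALKBH5, 0.07, was -0.69 in normalised counts and -1.01 with protein-coding transcripts only, with ALKBH5 then higher in both libraries by more than the sum of the SDs. The cause was not tested. The ordered pairs numbered 25 to 33 of 36, and 7 to 9 members had 1 leading transcript in both libraries, although not always the same transcript across settings. Divided by length, the MANE Select transcript led in both libraries in 3 members in place of 6 and an NMD transcript in 2 in place of 1, and the exon 9 share of FTO was 96.4% with any coding base in place of 58.9%, all settings added after seeing the data. With 0 members over 2-fold in every setting, 4 were higher in replicate 2 by normalised counts, and 6 per 1000000 estimated counts. Depth limits ALKBH7 and ALKBH8 most, with 213 and 264 estimated counts in replicate 1 and 335 and 218 in replicate 2.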

Other observations

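Other dioxygenases that use 2-oxoglutarate lay mostly within the range of the AlkB family. This range is wide, as 55.5% of expressed genes had a lower mean level than ALKBH8 and 94.4% a lower one than FTO. Of 9 such genes, OGFOD1, which hydroxylates a ribosomal protein, was the highest with a length-normalised level of 36.4 ± 2.90, and TET2, which oxidises 5-methylcytosine, the lowest with 2.35 ± 0.0414 (SD, n = 2 each). Of the 9, 8 lay between ALKBH8 and FTO. Among 3 genes for other repair of alkylated bases, MPG, a glycosylase for alkylated purines, held 45.8 ± 4.88 and MGMT, which removes alkyl groups from guanine, 14.9 ± 0.398 (SD, n = 2 each), so all 3 lay within the range of the members.

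Of 6 genes taken as markers of HEK293 cells, VIM was the highest with 307 ± 6.54 and NEFM the lowest with 0.281 ± 0.0652 (SD, n = 2 each), below all members. The leukocyte, hepatocyte and muscle markers PTPRC, ALB and MYH7 were listed at 0 in both libraries. HBB, an erythroid marker, had 20.2 and 20.9, beside 23.6 and 21.8 for ALKBH2, and its part in these results was not tested.

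Several minor transcripts of the members were listed at 0 in 1 library and well above 0 in the other. ALKBH3-204 was at 0 in replicate 1 and held 40.4 estimated counts in replicate 2, 10.3% of the gene, and FTO-211 was at 0 and 34.3. ALKBH3-206 held 27.8 in replicate 1 and ALKBH2-204 held 23.4, with both at 0 in replicate 2. In all, 16 of the 81 transcripts were at 0 in both libraries, 12 in replicate 1 only and 4 in replicate 2 only. Replicate 2 was the deeper library, and the shares over all listed transcripts were not computed, so these counts are not read as a trait of the members.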
